A study of Homo sapiens with 3 samples.

Results

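The genes described here are a receptor set of blood cell growth factors and cytokines, measured in THP-1, an established human monocytic leukemia cell line. The set holds CSF1R, KIT, FLT3, CSF2RA, CSF2RB, IL3RA, CSF3R, IL6R and IFNGR1, and CSF1, which is a ligand and not a receptor. Its members were found as the array probe sets that list exactly 1 of these symbols. All 10 genes were found, with 21 of the 41091 probe sets that list 1 gene, out of 19775 genes in all. A probe set is a group of short oligonucleotides that reads 1 transcript or several transcripts of a gene, and its MAS5 signal is a brightness on a linear scale.

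The study measured 3 conditions with 1 array each: undifferentiated THP-1 cells, THP-1 cells labelled PMA 3 days and THP-1 cells labelled PMA 8 days. Phorbol myristate acetate (PMA) activates protein kinase C and turns THP-1 cells into adherent, macrophage-like cells. Both PMA cultures started in 200 nM PMA by the labels' protocols. For PMA 3 days this lasted 24 h, followed by 3 days in PMA-free medium, so that its label and its protocol do not add up to the same time. The PMA 8 days culture had 72 h of PMA and then 5 days without it. Cells grew in 10% serum, with a change to 2% serum 16 h before RNA was taken; whether undifferentiated cells had this change is not stated. Length of PMA exposure, time since its removal and age of the culture therefore cannot be told apart. The cell line is a single leukemia, each condition is 1 culture, and no array was repeated, so no value has an error across cultures and no p-value can be given. In such bulk RNA, fewer cells that express a gene and less RNA per cell cannot be told apart.

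A floor of 150.2, which is the median signal when the 3 arrays are pooled, was set; signals under it have no order and were raised to it before a ratio was taken. A fold against an array at the floor is a lower bound and is written "at least". In the counts below "higher" and "lower" mean 2-fold or more. The only spread that could be measured was that among probe sets that read 1 gene. In 5175 genes their log2 ratios had an SD of 0.43 when PMA 3 days was set against undifferentiated cells, 0.44 when PMA 8 days was, and 0.27 between the PMA arrays. The SD leaves out differences between cultures and labellings.

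As background, haematopoietic growth factors keep blood cell precursors alive, drive their division and steer them to a lineage, and a cell responds only to those whose receptor it carries. CSF1R, KIT and FLT3 are related receptor tyrosine kinases, which phosphorylate themselves once a ligand pairs them. The other receptors have no kinase of their own and signal through STAT factors and JAK kinases, which are bound to chains of the receptor complex. In myeloid development KIT and FLT3 mark stem and progenitor cells, CSF3R the granulocyte lineage and CSF1R the monocytes and macrophages.

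Each array had a trimmed mean signal of 1000, with 48.5% to 51.4% of probe sets over the floor. The 3′ over 5′ signal of control transcripts, a measure of RNA integrity, lay between 1.36 and 1.49 for actin and between 1.10 and 1.16 for GAPDH. Of 6 measured monocytic markers, 5 were above the floor on every array, with summed signals between 98862 and 124800. FCGR1A, read here only by probe sets that list 1 gene, was under the floor throughout. Over undifferentiated cells 2 of these markers (CD14 and ITGAM) were higher at both PMA times, while 1 (CST3) was lower at PMA 3 days and 2 (CST3 and LYZ) were lower at PMA 8 days. Of 5 lymphoid markers 1 or 2 were above the floor on an array, of 5 erythroid and mast cell markers 1 or 2, and of 6 fibroblast and endothelial markers 2. The summed signals of these lists were 655 to 855, 661 to 772 and 20789 to 23270, the last almost all from PECAM1, which myeloid cells also express. CD3E, MS4A1, ALAS2, TPSAB1, COL1A2 and CDH5 were under the floor on all 3 arrays. The lymphoid marker CD79A was above it on all 3, at 492 in undifferentiated cells, 348 at PMA 3 days and 425 at PMA 8 days. So was the erythroid marker HBB, at 382, 425 and 442 in that order. COL1A1 was 5.03-fold higher at PMA 3 days and 3.94-fold higher at PMA 8 days than in undifferentiated cells; its part in the results below was not tested.

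PMA-treated THP-1 cells had more signal for the macrophage receptor CSF1R and the interferon gamma receptor chain IFNGR1, and less for KIT, FLT3, CSF2RA, IL3RA, CSF3R and IL6R. At PMA 3 days over undifferentiated 2 of the 10 members were higher and 6 lower, where 10.3% and 10.6% of 13267 genes were. At PMA 8 days over undifferentiated 2 were again higher and 6 lower, where 9.72% and 8.34% of 13504 genes were. Both comparisons use the same undifferentiated array, so their counts are not separate evidence. The median log2 ratio of the members was -1.47 at PMA 3 days and -1.62 at PMA 8 days, and that of all genes -0.12 and -0.07. FLT3 and IL3RA were above the floor in undifferentiated cells alone, and KIT there and at PMA 8 days, so KIT, FLT3 and IL3RA at PMA 3 days, and FLT3 and IL3RA at PMA 8 days, could enter the comparison only by standing below undifferentiated cells. These are 3 of the 6 lower members at PMA 3 days and 2 of the 6 at PMA 8 days. The 2 members within 2-fold at either time were CSF2RB, the shared beta chain of the GM-CSF, IL-3 and IL-5 receptors, and CSF1.

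Scaling the arrays to the poly-A labelling controls moved the median of all genes by -0.25 at PMA 3 days over undifferentiated and by 0.27 at PMA 8 days over PMA 3 days. Higher genes then made up 30.6% of the calls at PMA 3 days over undifferentiated (49.4% as deposited) and 92.6% at PMA 8 days over PMA 3 days (59.2% as deposited). The members' counts of 2 higher and 6 lower at both PMA times over undifferentiated were also obtained on that scale. There 7.69% of all genes were higher and 17.4% lower at PMA 3 days over undifferentiated, so the background for lower genes was larger. At PMA 8 days over undifferentiated the shares were 9.92% and 8.12%.

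**Figure D1:**
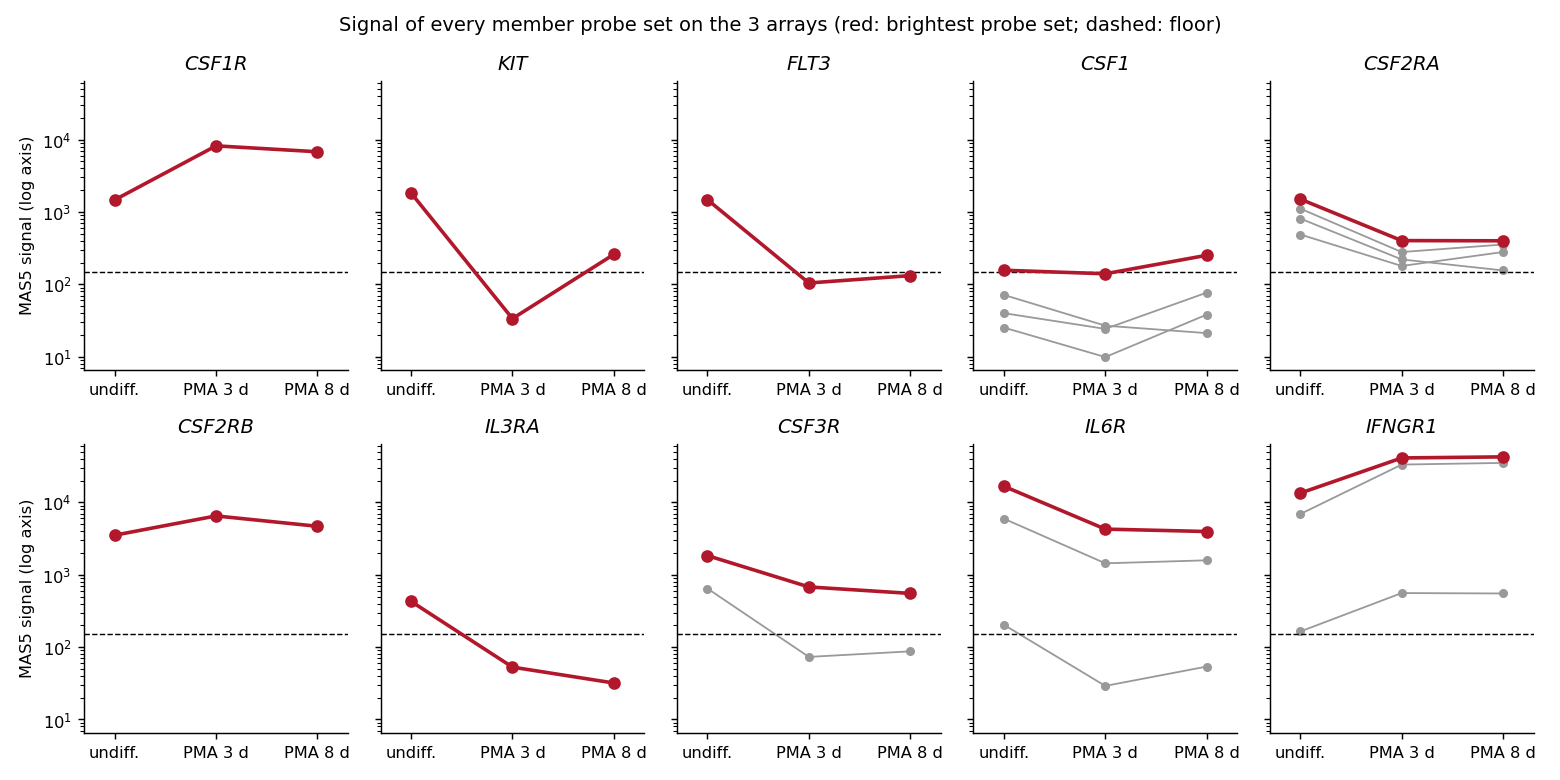
MAS5 signal (log axis) of all 21 member probe sets on the undifferentiated, PMA 3 days and PMA 8 days arrays, 1 panel per gene and 1 line per probe set. The brightest probe set of each gene is red, the others are grey, and the dashed line is the floor of 150.2. CSF1R and IFNGR1 lie higher on both PMA arrays, KIT dips to 33.6 at PMA 3 days and stands at 260 at PMA 8 days, and 3 of the 4 CSF1 probe sets stay under the floor.

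The receptor tyrosine kinases moved in opposite directions. CSF1R, the receptor for CSF1 and IL-34 on which monocytes and macrophages depend, had a signal of 1469 in undifferentiated cells, 8210 at PMA 3 days and 6801 at PMA 8 days. Its single probe set was thus 5.59-fold higher at PMA 3 days (log2 ratio 2.48) and 4.63-fold higher at PMA 8 days (2.21) than in undifferentiated cells. CSF1R ranked 317th from the top of 13267 genes in the first of these comparisons and 365th of 13504 in the second.

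KIT, the receptor for stem cell factor, had a signal of 1831 in undifferentiated cells, 33.6 at PMA 3 days and 260 at PMA 8 days. It was at least 12.2-fold lower at PMA 3 days and 7.05-fold lower at PMA 8 days than in undifferentiated cells. KIT ranked 41st from the bottom of all genes in the first comparison and 90th in the second, with genes at the floor counted at their bound. The PMA 8 days array read KIT above the floor and the PMA 3 days array did not.

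FLT3, the receptor for FLT3 ligand on early progenitors and dendritic cell precursors, had a signal of 1478 in undifferentiated cells, 105 at PMA 3 days and 132 at PMA 8 days. It lay under the floor on both PMA arrays, so that it was at least 9.84-fold lower at either time than in undifferentiated cells and its PMA levels have no order. Of the receptor kinases, CSF1R was thus above the floor on all 3 arrays, KIT on 2 and FLT3 on the undifferentiated array alone.

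The RefSeq windows around the start sites of these genes, with 250 bases before and 50 from the start, are shown because the receptors moved together or apart. All are from GRCh38.p14 and are written 5′ to 3′ on the gene's strand. Capitals mark matches on either strand to AGAGGAA, core letters of sites of the myeloid factor PU.1, and to TGANTCA, the AP-1 site of the FOS and JUN factors that phorbol esters induce. The motif TTCNNNGAA, read by STAT factors, was searched too and has no match in the windows printed here. CSF1R has several start sites, of which the table lists 2; the downstream one is known as the start used in myeloid cells, and the upstream one as that of placental trophoblast.
CSF1R downstream start, chr5:150086505-150086804, minus strand: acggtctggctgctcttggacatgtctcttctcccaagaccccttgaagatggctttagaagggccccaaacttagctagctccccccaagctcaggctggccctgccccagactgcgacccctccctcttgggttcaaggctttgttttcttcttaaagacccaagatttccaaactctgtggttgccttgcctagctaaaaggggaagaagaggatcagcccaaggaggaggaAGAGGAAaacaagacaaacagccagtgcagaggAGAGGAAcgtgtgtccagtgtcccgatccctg
CSF1R upstream start, chr5:150113316-150113615, minus strand: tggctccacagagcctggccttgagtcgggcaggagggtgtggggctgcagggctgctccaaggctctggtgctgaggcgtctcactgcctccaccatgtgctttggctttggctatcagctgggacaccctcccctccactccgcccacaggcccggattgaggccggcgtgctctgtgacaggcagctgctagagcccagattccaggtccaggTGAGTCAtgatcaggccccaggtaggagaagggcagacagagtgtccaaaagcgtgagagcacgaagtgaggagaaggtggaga
KIT, chr4:54657707-54658006, plus strand: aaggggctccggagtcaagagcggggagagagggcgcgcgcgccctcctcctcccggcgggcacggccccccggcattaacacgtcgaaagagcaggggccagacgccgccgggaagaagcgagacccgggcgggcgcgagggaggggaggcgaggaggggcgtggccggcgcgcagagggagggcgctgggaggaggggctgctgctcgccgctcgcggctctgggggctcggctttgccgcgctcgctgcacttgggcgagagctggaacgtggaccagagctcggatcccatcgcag
FLT3, chr13:28100527-28100826, minus strand: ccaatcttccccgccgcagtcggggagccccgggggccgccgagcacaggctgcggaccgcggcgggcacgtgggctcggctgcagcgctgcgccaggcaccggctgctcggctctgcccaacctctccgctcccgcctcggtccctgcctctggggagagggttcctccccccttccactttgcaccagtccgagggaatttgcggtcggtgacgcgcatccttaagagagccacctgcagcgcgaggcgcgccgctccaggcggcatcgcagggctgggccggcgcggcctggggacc
CSF2RA, chrX:1268564-1268863, plus strand: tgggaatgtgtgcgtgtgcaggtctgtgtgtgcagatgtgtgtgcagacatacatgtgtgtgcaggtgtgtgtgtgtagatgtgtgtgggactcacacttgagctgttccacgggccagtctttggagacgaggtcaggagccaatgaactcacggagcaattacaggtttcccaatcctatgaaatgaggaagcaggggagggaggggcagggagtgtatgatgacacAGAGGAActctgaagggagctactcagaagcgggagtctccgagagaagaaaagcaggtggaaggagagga

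The downstream CSF1R window holds AGAGGAA at -15 and 19, counted from the start site as 1, and the upstream window holds TGAGTCA at -34. The KIT and FLT3 windows, with 74.3% and 74.0% G and C, hold none of the 3 motifs. The share of G and C was 54.0% in the downstream CSF1R window and 62.3% in the upstream one. Windows of IFNGR1, which was higher, also hold no motif, at 70.7% and 65.3%. Those of CSF3R, which was lower, had 44.3% and 62.7%, and that of CSF2RA 53.0%. The shares of higher and lower members thus overlapped. CSF2RA, which was lower after PMA, holds AGAGGAA at -21, so that this motif stands near the start of a member that was higher and of a member that was lower. Of the 8 members with a window, 2 hold AGAGGAA (CSF1R and CSF2RA), 2 hold TGANTCA (CSF1R and IL6R) and 1 holds TTCNNNGAA (IL3RA, at -199, -179 and 13). Over all 35116 windows the shares were 9.84%, 7.71% and 7.66%, and no matches in the members overlap. Members are counted as genes, some with more than 1 window, and the shares are of windows, so the units differ. A match is a run of letters and was not tested for binding. SPI1, the gene of PU.1, was read by 1 probe set at 25.0 in undifferentiated cells, 162 at PMA 3 days and 175 at PMA 8 days, near or under the floor on every array. Whether this probe set reads the transcript well was not tested, so these signals do not show that PU.1 is absent.

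The alpha chains that give the GM-CSF and IL-3 receptors their ligand were lower, while the beta chain they share was within 2-fold. CSF2RA, the GM-CSF receptor alpha chain, was read by 4 probe sets, all above the floor on all arrays. Its brightest had signals of 1507 in undifferentiated cells, 403 at PMA 3 days and 400 at PMA 8 days, 3.74-fold and 3.77-fold lower at the PMA times. The other 3 ranged from 489 to 1114 in undifferentiated cells, from 180 to 280 at PMA 3 days and from 156 to 356 at PMA 8 days.

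Log2 ratios of the CSF2RA probe sets over undifferentiated cells ran from -1.99 to -1.44 at PMA 3 days and from -2.38 to -0.80 at PMA 8 days. At PMA 8 days 1 of the 4, with a ratio of -0.80, was thus within 2-fold. Of these probe sets 3 carry the suffix _x_at, which marks probes that can also bind other transcripts.

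IL3RA, the IL-3 receptor alpha chain, had a signal of 428 in undifferentiated cells, 52.9 at PMA 3 days and 31.9 at PMA 8 days. It was at least 2.85-fold lower at either PMA time, a bound set by the floor. With the floor at 262.2, the 60th percentile of all values, this bound was a log2 ratio of -0.71 and IL3RA was no longer past 2-fold. CSF2RB, which carries the JAK kinase for both receptors, had a signal of 3516 in undifferentiated cells, 6493 at PMA 3 days and 4669 at PMA 8 days. The PMA arrays were both above the undifferentiated array, by 1.85-fold (log2 ratio 0.88) and 1.33-fold (0.41). The first of these log2 ratios exceeded the SD between probe sets of 0.43 and the second was below the SD of 0.44.

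CSF3R, the receptor for G-CSF that drives neutrophil production, was lower by both of its probe sets. The brighter read 1836 in undifferentiated cells, 678 at PMA 3 days and 552 at PMA 8 days, 2.71-fold and 3.33-fold lower at the PMA times. The other read 644 in undifferentiated cells and 73.2 and 87.3 on the PMA arrays, under the floor, at least 4.29-fold lower at either time. All CSF3R signals on PMA arrays lay below those of the same probe set in undifferentiated cells.

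IL6R, the IL-6 binding chain that works with the shared chain IL6ST, had a brightest probe set at 16675 in undifferentiated cells, 4269 at PMA 3 days and 3954 at PMA 8 days. It was 3.91-fold lower at PMA 3 days (log2 ratio -1.97) and 4.22-fold lower at PMA 8 days (-2.08). The second probe set read 5946 in undifferentiated cells, 1437 at PMA 3 days and 1581 at PMA 8 days, 4.14-fold and 3.76-fold lower. The dimmest read 203 in undifferentiated cells and 29.1 and 53.8 on the PMA arrays, under the floor, which gives at least 1.35-fold lower at either time.

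IFNGR1, the chain of the interferon gamma receptor that binds the cytokine, was higher by all 3 of its probe sets. The brightest had signals of 13424 in undifferentiated cells, 41080 at PMA 3 days and 42485 at PMA 8 days, 3.06-fold and 3.16-fold higher at the PMA times. The second, at 6894 in undifferentiated cells, 33268 at PMA 3 days and 35071 at PMA 8 days, was 4.83-fold and 5.09-fold higher. The third, at 164, 558 and 551 in that order, was 3.40-fold and 3.35-fold higher, from an undifferentiated level just above the floor. The PMA arrays did not differ by more than a log2 ratio of 0.08 in any of the 3. IFNGR2, the partner chain, was within 2-fold at 10846 in undifferentiated cells, 19448 at PMA 3 days and 19620 at PMA 8 days.

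CSF1, the ligand of CSF1R, was near or under the floor. Its brightest probe set read 157 in undifferentiated cells, 140 at PMA 3 days and 252 at PMA 8 days, 1.61-fold above undifferentiated cells at PMA 8 days (log2 ratio 0.69). The other 3 probe sets read between 9.90 and 76.9 and gave no ratio. Ligands of the other receptors, where they could be read, were mostly under the floor as well. Of 14 further ligand genes fixed as a list, 12 had a probe set of their own. CSF2, the gene of GM-CSF, and THPO had none and were not read. Of the 12, 1 at PMA 3 days and 3 at PMA 8 days could be compared with undifferentiated cells, none past 2-fold. The one above the floor on all 3 arrays was KITLG, the stem cell factor gene that feeds KIT, at 791 in undifferentiated cells, 1152 at PMA 3 days and 1341 at PMA 8 days. IL34, the other ligand of CSF1R, was above the floor on the PMA 8 days array alone, at 210.

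**Figure D2:**
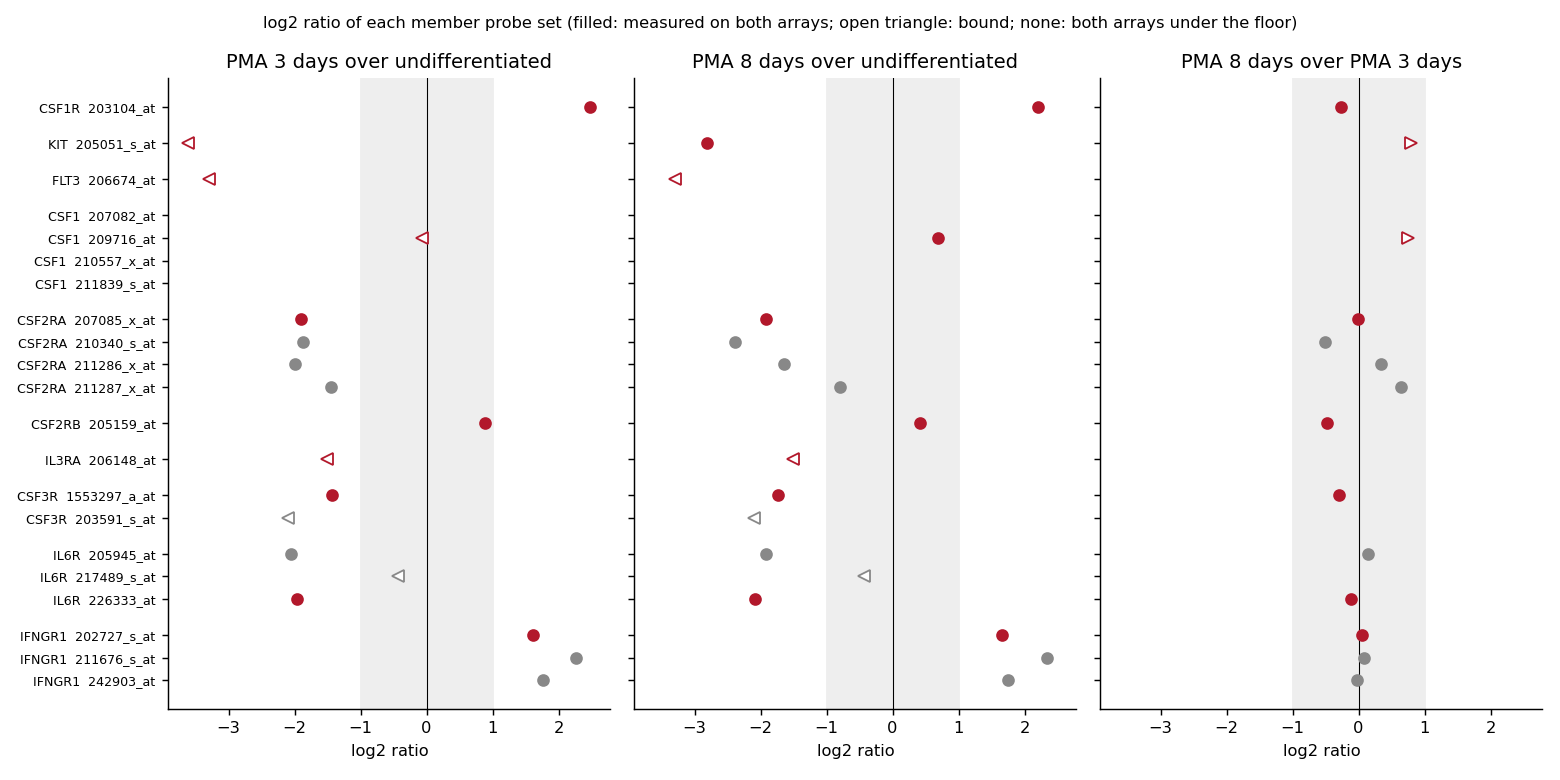
Log2 ratio of each member probe set in the 3 comparisons, with the zone within 2-fold in grey. Filled circles are measured on both arrays, open triangles are bounds from an array under the floor, and a missing symbol means that both arrays were under it; red marks the brightest probe set. IFNGR1 lies right of the grey zone and CSF3R left of it by every probe set in both comparisons with undifferentiated cells, CSF2RA has 1 probe set at -0.80 within it at PMA 8 days, and no symbol leaves the zone between the PMA arrays.

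Of 8 members that could be compared between the PMA arrays, 0 were past 2-fold at PMA 8 days over PMA 3 days. As 1.36% of 13019 genes were higher and 0.937% lower, a count of 0 among 8 is near the background. The median absolute log2 ratio was 0.28 for the members and 0.21 for all genes. FLT3 and IL3RA were under the floor on both arrays and gave no ratio. KIT was at least 1.73-fold higher at PMA 8 days, at 260, against 33.6 at PMA 3 days, and with the floor at 94.7, the 40th percentile of all values, its bound was a log2 ratio of 1.46. CSF1 was at least 1.68-fold higher at PMA 8 days than at PMA 3 days.

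The other 6 had log2 ratios between -0.48 (CSF2RB) and 0.05 (IFNGR1) at PMA 8 days over PMA 3 days. CSF2RB at -0.48, CSF3R at -0.30 and CSF1R at -0.27 were at or beyond the SD of 0.27 between probe sets on the deposited scale. Under poly-A control scaling these were -0.18, -0.0036 and 0.02, so that the sign for CSF1R turned, where the median of all genes was 0.31. The CSF2RA probe sets spread from -0.50 to 0.64 in this comparison, so that the order of its PMA levels depends on the probe set.

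**Figure D3:**
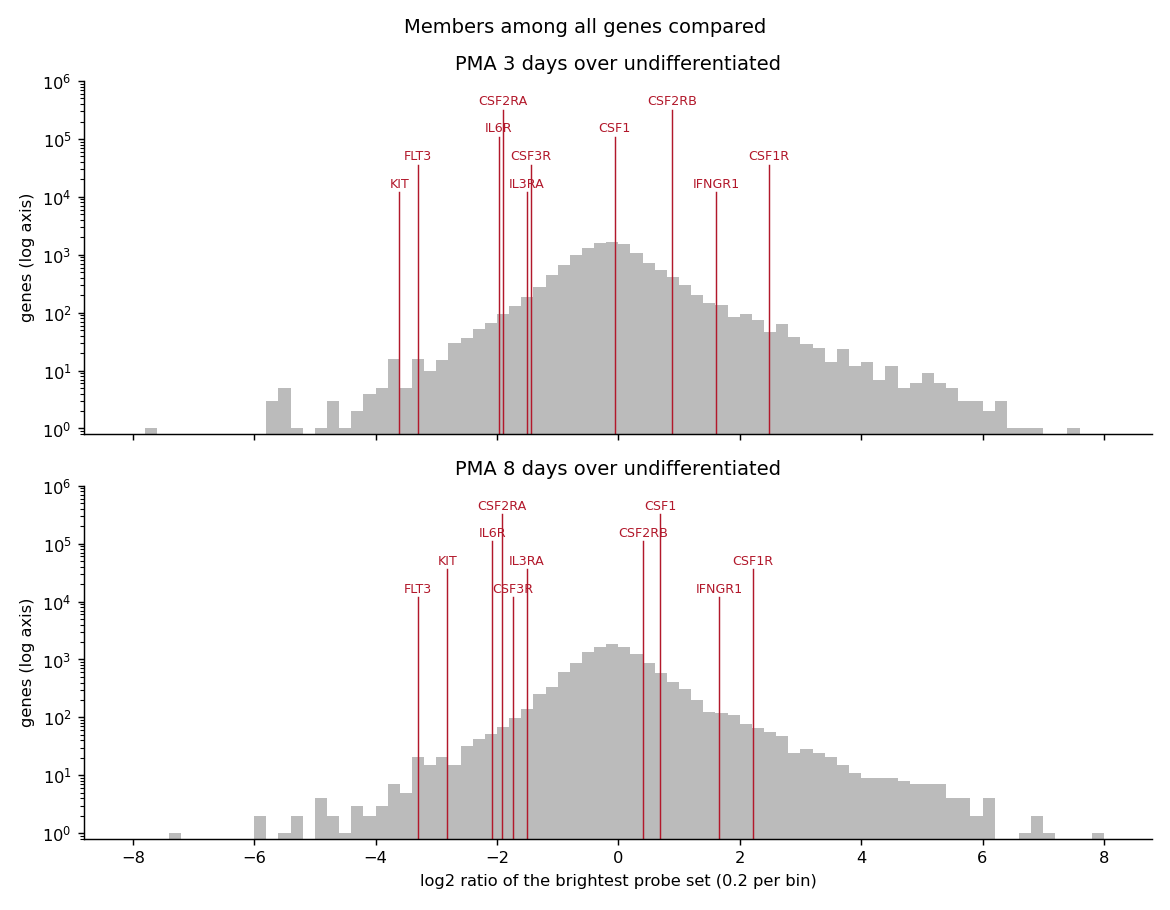
Number of genes (log axis) by log2 ratio of the brightest probe set, in bins of 0.2, with each member marked by a red line. The upper panel is PMA 3 days over undifferentiated (13267 genes) and the lower PMA 8 days over undifferentiated (13504 genes); KIT and FLT3 stand in the low tail at -3.61 and -3.30 in the upper panel, and CSF1R is the member farthest to the right at 2.48. The lines of KIT, FLT3, IL3RA and CSF1 in the upper panel, and of FLT3 and IL3RA in the lower, are bounds.

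Other chains of the same receptor classes were set beside the members. Shares of all genes, for this and the lists below, were 10.3% higher and 10.6% lower at PMA 3 days over undifferentiated. At PMA 8 days over undifferentiated they were 9.72% and 8.34%. Of 14 further type I and II cytokine receptor chains above the floor, 4 were higher and 0 lower at PMA 3 days over undifferentiated, with a median log2 ratio of 0.90, and 4 were higher and 0 lower at PMA 8 days, with a median of 0.67. IL4R, the IL-4 binding chain, was 2.82-fold higher at PMA 3 days and 3.53-fold at PMA 8 days, and IL10RA, the IL-10 binding chain, 2.81-fold and 2.44-fold. IL6ST, the signalling partner of IL6R, was within 2-fold at 4280 in undifferentiated cells, 7910 at PMA 3 days and 7111 at PMA 8 days. IL6R and IL6ST thus lay on opposite sides of their undifferentiated levels.

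Among 19 kinases and adaptors that act next to the receptors, 2 were higher and 2 lower at PMA 3 days, and 2 higher and 1 lower at PMA 8 days, with medians of -0.21 and -0.23. These counts were near the shares of all genes. PIK3CD, the leukocyte form of the PI3-kinase catalytic subunit, was 13.0-fold lower at PMA 3 days and 9.40-fold lower at PMA 8 days than in undifferentiated cells. The SRC family kinases FYN (2.54-fold and 2.50-fold) and LYN (2.07-fold and 2.11-fold) were higher. JAK1, JAK2, JAK3 and TYK2, which the type I and II receptors use, were all within 2-fold of undifferentiated cells, with log2 ratios between -0.47 and 0.39.

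Of 18 inhibitors of receptor signalling 4 were higher and 1 lower at PMA 3 days, and 3 higher and 2 lower at PMA 8 days, with medians of -0.05 and 0.17. SPRED1 (5.95-fold and 6.28-fold) and SPRY2 (3.17-fold and 5.13-fold), which restrain the RAS-ERK pathway below receptor kinases, and CBLB, a ubiquitin ligase (3.66-fold and 3.91-fold), were higher. CISH, a STAT5 target that blocks cytokine receptors, was 3.11-fold lower at PMA 3 days and 4.19-fold lower at PMA 8 days. Among 5 STAT genes STAT4 was 4.82-fold higher at PMA 3 days and 3.43-fold at PMA 8 days, and STAT5A, which KIT, FLT3 and the beta chain receptors activate, 2.36-fold and 1.84-fold above undifferentiated cells. The list had 2 higher at PMA 3 days and 1 at PMA 8 days, 0 lower, and medians of 0.44 and 0.12.

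Several growth factor receptors are cut from the cell surface by proteases. Of 9 genes of such shedding and processing 2 were higher at PMA 3 days and 4 at PMA 8 days, 0 were lower, and medians were 0.69 and 0.78. RHBDF2, which brings the sheddase ADAM17 to the surface, was 3.68-fold and 3.92-fold higher, while ADAM17 and ADAM10 themselves were within 2-fold. TIMP3, an inhibitor of these proteases, was 1.56-fold above undifferentiated cells at PMA 3 days and 3.29-fold higher at PMA 8 days.

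Transcription factors known for myeloid receptor genes went both ways, with 2 higher and 5 lower of 10 at either PMA time and medians of -1.07 and -0.98. MITF, which acts with KIT in mast cells and with CSF1R in osteoclasts, was 11.2-fold higher at PMA 3 days and 10.1-fold at PMA 8 days. MYB, a progenitor factor that upholds KIT, was 46.9-fold and 30.4-fold lower, and IRF8 13.9-fold and 10.6-fold lower. GFI1, at 6206 in undifferentiated cells, was at least 41.3-fold lower at PMA 3 days and 17.8-fold lower at PMA 8 days. Of 12 interferon gamma response genes 9 could be compared, as GBP4, CXCL9 and FCGR1A were under the floor on all arrays. Of these 9, 4 were higher and 0 lower at either time, with medians of 0.86 and 0.81. IFNGR1 was higher beside them, and the IFNG signal was under the floor on all arrays. The 4 higher genes were GBP1 (at least 44.3-fold and at least 45.2-fold), CXCL10 (16.3-fold and 5.92-fold), TAP1 (4.06-fold and 4.22-fold) and GBP2 (2.96-fold and 3.01-fold). IRF1, PSMB9, CIITA, IDO1 and GBP5 were within 2-fold, and GBP5 lay below undifferentiated cells (log2 ratios of -0.82 and -0.07). The interferon gamma response genes also answer other interferons.

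**Figure D4:**
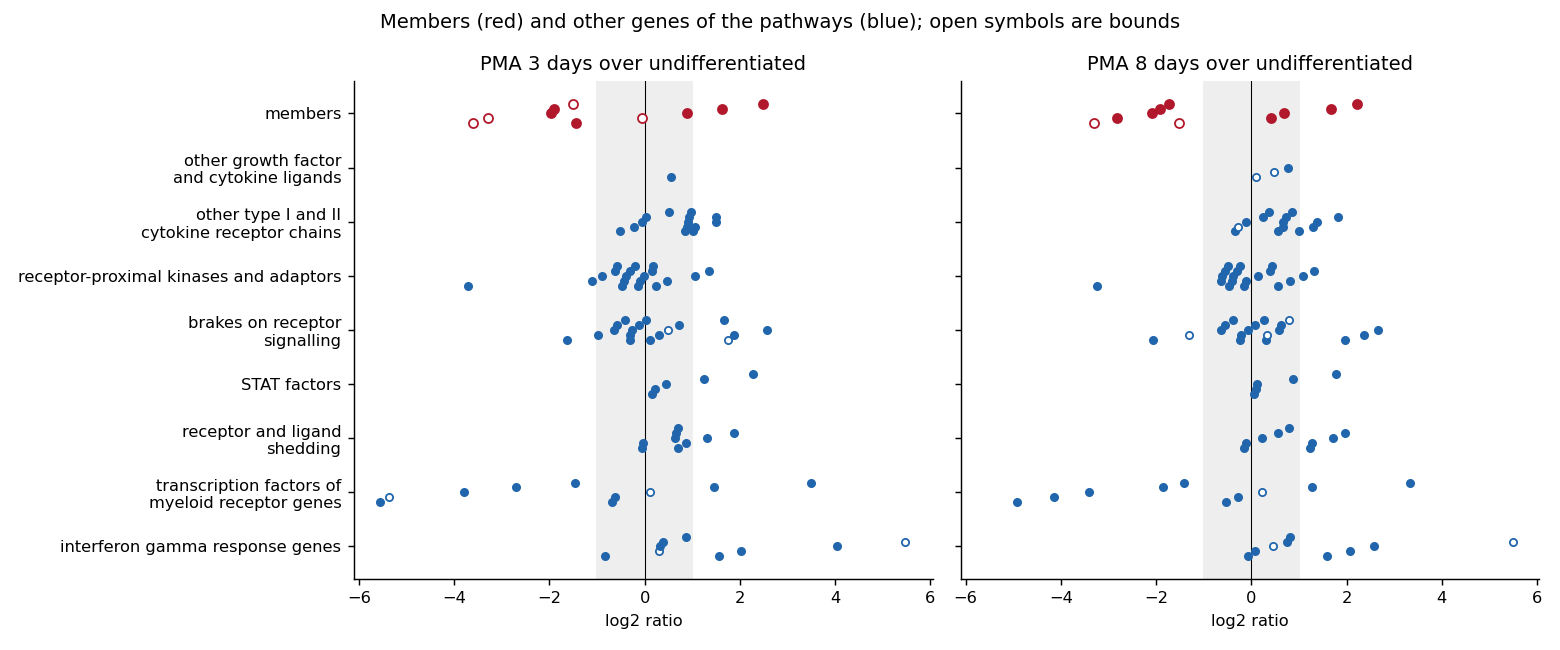
Log2 ratios of the members (red) and of the other genes of the pathway lists (blue), 1 point per gene, for PMA 3 days over undifferentiated (left) and PMA 8 days over undifferentiated (right). Open symbols are bounds and the grey zone is within 2-fold. Members lie on both sides of the zone, the other cytokine receptor chains lie in it or to its right, and PIK3CD stands alone at -3.70 and -3.23 among the kinases and adaptors.

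Genes with the most similar pattern were looked for among 11139 genes above the floor on all 3 arrays, by the distance between their pairs of log2 ratios (PMA 3 days and PMA 8 days over undifferentiated). CSF1R, the highest such member at PMA 3 days, was closest to MSC-AS1 (distance 0.05), ADORA3 (0.09) and SLC31A1 (0.12), and 31 genes lay within 0.25. IL6R, the lowest such member, was closest to ICAM3 (0.03), NT5DC3 (0.11) and HYAL3 (0.12), with 26 genes within 0.25. Only 3 arrays stand behind these distances, so such neighbours are many and are a description of these arrays.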

How the data were processed

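The series held 3 one-colour oligonucleotide arrays, 1 per condition, of biotinylated cRNA made from 200 ng total RNA. Intensity values were used as the authors deposited them; per the submitters' processing notes they were made with MAS5, whose version and settings are not given in the sources used here. From the values, each array had a trimmed mean of 1000 (2% left out at either end), as global scaling would leave. Detection calls were not used here.

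Of 54675 probe sets 62 were controls, 41091 listed 1 gene, 1801 several and 11721 none in the platform table used here. Entrez IDs of 41037 matched the RefSeq table of GRCh38.p14, with 0 symbols changed. Each gene was read by its brightest probe set (mean log2 signal), and was compared where either array exceeded the floor. Some genes of the lists had no probe set of their own in this table. Probe sets that list several genes were not used, so a gene under the floor here may be read by such a probe set. Promoter windows came from RefSeq (GRCh38.p14). No coordinates of the array were used.

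Members and lists were chosen with earlier results of these data known. Per pathway list, up to 4 genes past 2-fold with the largest ratio were chosen to be named. Of these IL13RA1, IL7R, PIK3CG, RHBDF1 and FURIN are not described above. For the highest and the lowest member above the floor on all 3 arrays, the 3 nearest genes were named. SPI1, KITLG, IL34, CEBPA, GATA2, IFNGR2, IL6ST, IFNG, ADAM10, ADAM17 and the JAK genes were added after their values were seen. So were CEBPB, EGR1, KLF4, GBP4, CXCL9, FCGR1A, IRF1, PSMB9, CIITA, IDO1 and GBP5. The code for ratios and calls was tested on simulated data, with changes put only into genes well above the floor. That test did not cover ratios set by the floor or probe sets of a gene that differ. The number of arrays limits the precision. Python 3.11.15, numpy 2.4.6, pandas 2.3.3 and matplotlib 3.10.9 were used.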

Additional observations from a re-analysis of the deposited data

How the results depend on the processing

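Floors at the 60th and 40th percentile, quantile normalization, poly-A control scaling, the median over a gene's probe sets and thresholds of 1.5-fold and 3-fold were tried. Of 42 counts of members under these settings 40 stayed within 1.5 times the count reported. These 40 include counts between the PMA arrays that were 0 and stayed 0. The exceptions were members higher at PMA 8 days over PMA 3 days, 0 as reported, which came to 1 with the floor at the 40th percentile (KIT) and to 2 at 1.5-fold (KIT and CSF1), both by the settings' construction. Of 133 single log2 ratios 22 moved by more than the SD between probe sets, and no member past 2-fold changed sign. Within 2-fold, CSF1 at PMA 3 days over undifferentiated changed sign, as did CSF1R, CSF2RA and IL6R at PMA 8 days over PMA 3 days. Some of the 133 could not move by construction. The median over probe sets leaves a member with 1 probe set as it was. A change of floor leaves a ratio of signals above every floor as it was. KIT at PMA 3 days over undifferentiated ranged from -4.27 to -2.80, FLT3 from -3.82 to -2.49 and IL3RA from -2.18 to -0.71, with the extremes at the lower and the higher floor. CSF1R ranged from 2.20 to 2.50 and IFNGR1 from 1.34 to 2.27 there. Across all genes, poly-A control scaling gave 2302 lower genes at PMA 3 days over undifferentiated (1404 as deposited), and 512 higher and 41 lower at PMA 8 days over PMA 3 days (177 and 122 as deposited). Between the PMA arrays the floor at the 40th percentile gave 365 higher and 188 lower, and the 60th 97 higher. Against undifferentiated cells, 1.5-fold gave 2358 higher and 3141 lower genes at PMA 3 days (1368 and 1404 at 2-fold), and 2354 higher and 2698 lower at PMA 8 days (1312 and 1126 at 2-fold). The 3-fold threshold gave 728 higher and 509 lower at PMA 3 days, and 686 higher and 402 lower at PMA 8 days. Between the PMA arrays 1.5-fold gave 922 higher and 616 lower, and 3-fold 14 higher and 6 lower. No paired analysis was possible because each condition has 1 array. Signals under the floor limit what can be said of KIT, FLT3, IL3RA and CSF1.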

Other observations

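Of 10 transcription factors of myeloid receptor genes that could be compared between the PMA arrays, 1 was higher and 0 were lower at PMA 8 days over PMA 3 days, with a median log2 ratio of 0.25. Of all 13019 genes 1.36% were higher and 0.937% lower. The 1 factor past 2-fold was GFI1, at 349 at PMA 8 days and 113 at PMA 3 days, a bound of 1.22 set by the floor. CEBPA had 3760 at PMA 8 days and 2090 at PMA 3 days (0.85), MYB 1074 and 696 (0.63), and GATA2 367 and 357 (0.04), all within 2-fold. EGR1 (0.41), IRF8 (0.38), SPI1 (0.11) and KLF4 (0.09) were also within 2-fold. CEBPB (-0.18) and MITF (-0.15), the factors that were higher than in undifferentiated cells, lay below their PMA 3 days signals. The median of all genes in this comparison was 0.04 on the deposited scale, which the factors' values use. Under poly-A control scaling it was 0.31, and the factors' median was not taken on that scale. On the deposited scale CXCL10 had a log2 ratio of -1.46 and TIMP3 of 1.08 at PMA 8 days over PMA 3 days. Each was the 1 gene past 2-fold among 9 compared in its list, interferon gamma response and shedding genes.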
